A study of Homo sapiens with 8 samples.

Results

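Sequencing of 8-oxo-7,8-dihydroguanine (8-oxoG) immunoprecipitates was compared with sequencing of the input RNA in BEAS-2B cells exposed to formaldehyde. The comparison holds 4 of the 8 libraries of the series: 2 libraries of immunoprecipitated RNA (FA_IP) and 2 libraries of the input RNA from which it was taken (FA_IN). Expected counts were summed by gene, and a gene was kept when its rounded sum reached 10 in at least 2 of the 4 libraries. This left 16920 genes, of 32570 with a rounded count in these libraries and 58735 in the deposited tables.

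BEAS-2B is an established line of normal human bronchial epithelium. Cells on collagen-coated inserts, with their upper surface exposed to the gas, received air with 1 ppm formaldehyde for 2 h and then recovered for 6 h. Clean air cultures (CA_IN and CA_IP, 2 libraries each) were handled in the same way without formaldehyde. All 8 libraries were made from RNA depleted of ribosomal RNA, with a kit for small RNA libraries, so that depletion, kit and line are common to all groups. Per the study's methods, only the pull-down RNA was bound to beads, washed, eluted and cleaned up before its libraries were made. Input and pull-down therefore differ in these steps as well as in the antibody. The replicates were described as biological duplicates, and input and pull-down of a replicate came from the same RNA pool. The sample labels and the study's methods name the antibody as clone 15A3, whereas the extraction text of the labels names clone 2E2. No pull-down without this antibody entered the comparison.

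Guanine is the base most easily oxidized in RNA, and 8-oxoG is its usual product. An antibody against 8-oxoG retains the RNA molecules that carry the base, and the ratio of pull-down to input measures how strongly each gene's RNA was retained relative to the other genes. The ratio is relative: a gene at the middle of the distribution sits near 0 on the log2 scale however much RNA was recovered. Short structured RNAs of the nucleus and nucleolus (snRNAs, snoRNAs and the RNAs of RNase P and RNase MRP), mitochondrial RNAs and mRNAs are all present in such total RNA.

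The input libraries held 26.2 and 36.6 M expected counts and the pull-down libraries 16.9 and 23.7 M. Of the 9 bronchial epithelial markers examined, all passed the filter, with KRT7 at 1680 and 1684 CPM (expected counts scaled to the library total, with edgeR's TMM factors) in the input. Of 16 markers of blood, endothelial, mesenchymal, adipose and neural cells, 6 passed. All 16 together held 0.00115% and 0.00141% of counts in the input and 0.00112% and 0.00136% in the pull-down. HBB had no rounded count in any of the 4 libraries, and CD68, the highest, reached 6.87 CPM.

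With edgeR's quasi-likelihood test, 267 genes were lower in FA_IP than in FA_IN (1.58% of the 16920 tested) and 5 were higher (0.0296%), at an adjusted p under 0.05. The genes that fell were mostly short RNAs: snRNAs, snoRNAs, small Cajal body RNAs, other short RNAs transcribed by RNA polymerase III, mitochondrial RNAs, and the short mRNAs of ribosomal proteins, respiratory subunits and histones. Their median log2FC was -1.11, against 0.02 over all genes. In each of the 267, both pull-down values lay below both input values. Over all tested genes, 2922 were ordered in that way and 3445 in the opposite way. The called genes comprised 194 protein-coding genes, 31 snoRNAs, 15 snRNAs, 8 lncRNAs and 6 scaRNAs, with smaller numbers of other classes.

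A model with a term for the RNA pool, which compares each pull-down with its own input, moved both counts. It gave 829 lower genes (4.9%) and 1099 higher genes (6.5%), and all 267 lower and all 5 higher genes were among them. The genes that rose in this fit did so by a small amount, with a median log2FC of 0.31 and quartiles of 0.26 and 0.37. The number of higher genes also depended on scaling: with library size in place of TMM the median of all genes moved from 0.02 to 0.18 on the log2 scale, and 372 genes were higher and 256 lower. The log2FC values below use TMM, so that small rises are to be read against the median gene.

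**Figure D1:**
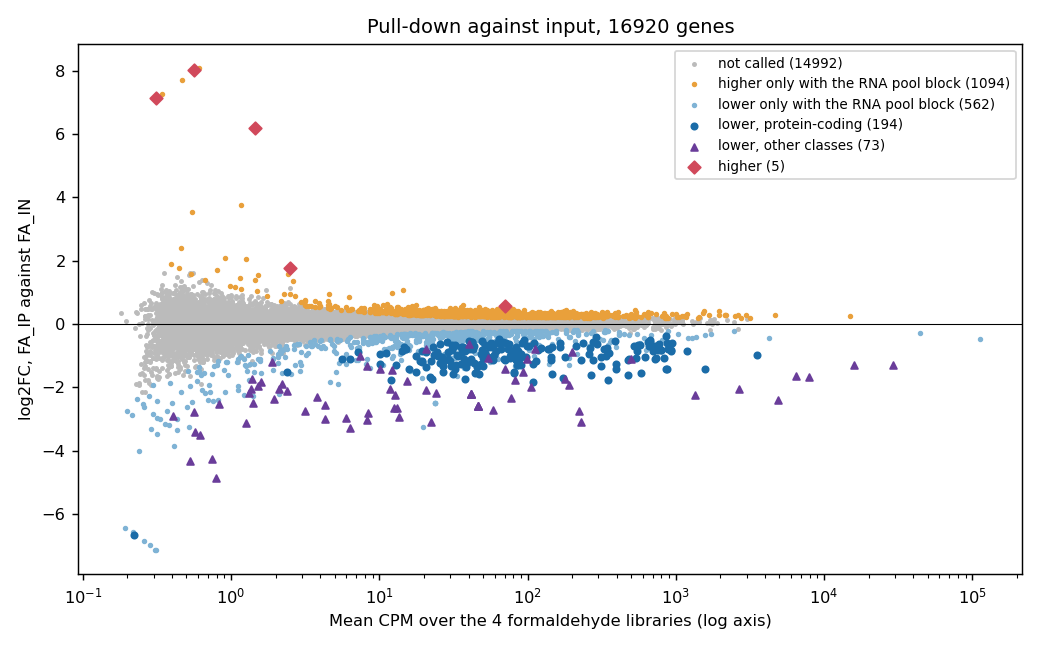
Mean CPM over the 4 formaldehyde libraries (horizontal, log axis) against the log2FC of FA_IP over FA_IN (vertical), 1 point per gene for 16920 genes. Of the 267 lower genes, 194 are protein-coding and 73 of other classes, and 232 have a mean CPM of at least 10, whereas 4 of the 5 higher genes lie at low levels; 1094 further genes are higher, and 562 further genes lower, only with the RNA pool as a block.

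Sequences of short RNAs that fell are shown first, because length and base content are described further on. They are 10 of the called genes of at most 300 bases that are not mRNAs, not a complete set, each as the whole RNA of its gene. The sequences were taken from GENCODE 44 (GRCh38). Letters in capitals mark guanine, the base whose oxidation the antibody is directed against.
RNU4-2: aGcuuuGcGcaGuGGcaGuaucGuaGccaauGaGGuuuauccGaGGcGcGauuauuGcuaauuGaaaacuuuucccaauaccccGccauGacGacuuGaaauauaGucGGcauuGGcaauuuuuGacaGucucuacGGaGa
RNU2-2P: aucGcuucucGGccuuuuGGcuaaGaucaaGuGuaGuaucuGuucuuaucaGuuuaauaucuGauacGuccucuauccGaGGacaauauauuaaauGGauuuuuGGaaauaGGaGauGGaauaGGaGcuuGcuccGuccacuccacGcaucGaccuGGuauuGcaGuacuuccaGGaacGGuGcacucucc
RNU4-1: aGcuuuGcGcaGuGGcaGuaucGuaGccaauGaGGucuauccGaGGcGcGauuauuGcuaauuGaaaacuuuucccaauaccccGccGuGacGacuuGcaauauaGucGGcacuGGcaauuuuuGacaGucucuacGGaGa
SNORA73A: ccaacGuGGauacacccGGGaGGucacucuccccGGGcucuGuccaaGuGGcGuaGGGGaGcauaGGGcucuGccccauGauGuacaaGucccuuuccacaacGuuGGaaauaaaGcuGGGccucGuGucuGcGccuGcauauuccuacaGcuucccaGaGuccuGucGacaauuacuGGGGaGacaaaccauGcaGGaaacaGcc
SNORD17: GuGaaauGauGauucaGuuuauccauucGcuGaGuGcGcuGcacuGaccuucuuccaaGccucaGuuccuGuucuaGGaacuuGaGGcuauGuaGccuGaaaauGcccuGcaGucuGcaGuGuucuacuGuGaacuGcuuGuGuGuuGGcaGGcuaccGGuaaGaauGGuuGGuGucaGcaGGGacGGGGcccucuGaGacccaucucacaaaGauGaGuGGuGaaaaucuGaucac
SNORA70: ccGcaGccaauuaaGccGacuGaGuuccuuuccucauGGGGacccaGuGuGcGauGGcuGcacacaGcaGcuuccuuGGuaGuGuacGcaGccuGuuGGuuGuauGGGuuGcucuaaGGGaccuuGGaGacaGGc
RNU1-27P: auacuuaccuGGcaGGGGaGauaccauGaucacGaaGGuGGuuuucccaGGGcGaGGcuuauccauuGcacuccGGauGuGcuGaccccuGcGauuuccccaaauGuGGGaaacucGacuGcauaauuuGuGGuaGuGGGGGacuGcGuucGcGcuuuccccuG
RMRP: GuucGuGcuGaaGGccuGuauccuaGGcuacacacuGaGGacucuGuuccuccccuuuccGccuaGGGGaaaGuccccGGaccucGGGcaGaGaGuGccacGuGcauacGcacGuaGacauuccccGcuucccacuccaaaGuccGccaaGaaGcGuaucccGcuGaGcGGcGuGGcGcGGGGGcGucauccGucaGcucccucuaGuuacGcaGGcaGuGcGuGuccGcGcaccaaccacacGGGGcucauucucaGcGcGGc
SNORA73B: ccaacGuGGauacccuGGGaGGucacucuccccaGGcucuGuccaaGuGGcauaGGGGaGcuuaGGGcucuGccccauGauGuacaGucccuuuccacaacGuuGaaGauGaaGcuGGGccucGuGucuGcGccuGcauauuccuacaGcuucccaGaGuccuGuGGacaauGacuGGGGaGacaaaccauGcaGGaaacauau
SCARNA13: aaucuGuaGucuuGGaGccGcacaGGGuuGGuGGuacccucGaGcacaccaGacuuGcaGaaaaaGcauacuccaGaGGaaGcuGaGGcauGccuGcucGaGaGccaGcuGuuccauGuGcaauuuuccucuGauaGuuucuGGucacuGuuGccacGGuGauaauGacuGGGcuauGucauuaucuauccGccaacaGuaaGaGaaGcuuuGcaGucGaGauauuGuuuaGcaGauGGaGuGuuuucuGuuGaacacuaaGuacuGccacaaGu

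On GRCh38, RNU4-2 (chr12:120291763-120291903, minus strand) and RNU4-1 (chr12:120293097-120293237, minus strand) are neighbouring genes of the U4 snRNA and differ by 4 edits over 141 bases. RNU2-2P (chr11:62841619-62841809, minus strand) is a U2 snRNA gene, and RNU1-27P (chr14:34546714-34546877, plus strand) carries a U1 snRNA. SNORA73A (chr1:28507366-28507571, plus strand) and SNORA73B (chr1:28508559-28508762, plus strand) are neighbours that differ by 14 edits. SNORA70 (chrX:154400281-154400415, plus strand) and SNORD17 (chr20:17962710-17962946, minus strand) are snoRNAs. RMRP (chr9:35657754-35658017, minus strand), SNORA73B and SCARNA13 (chr14:95533355-95533629, minus strand) fell least among these 10.

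Spliceosomal snRNAs, which form the core of the splicing machinery, had the lowest median of the lists in the first RNA pool, at -3.42, and in the second a median of -1.89, above those of the H/ACA and C/D box snoRNAs (-2.09 and -2.18). All 15 that were tested had a negative log2FC (median -2.61), and 11 were called lower (15 with the pool block). RNU2-2P stood at 473 and 351 CPM in the input and at 43.0 and 53.2 CPM in the pull-down. That is 8.56-fold lower, with a log2FC of -3.10 ± 0.18 (approximate SE, adjusted p = 0.0002) and no overlap between the groups. RNU4-2 fell from 47.4 and 33.1 CPM to 2.61 and 6.5 CPM (log2FC -3.10 ± 0.35, adjusted p = 0.00237). The variant U1 gene RNVU1-7 had 130 and 127 CPM in the input and 24.6 and 26.2 CPM in the pull-down, with a log2FC of -2.33 ± 0.16. Its replicates lay closer together than those of the U4 genes. Counts of the U1 genes cannot be told apart: 4 genes including RNU1-2 carried the same counts in all 4 libraries, and so did 4 others including RNU1-1. The first set had a log2FC of -2.61 ± 0.39 (adjusted p = 0.00999) and the second of -2.20 ± 0.42 (adjusted p = 0.0414). The first call was lost without the first input or the first pull-down library (adjusted p up to 0.0858), and the second without either input library and with DESeq2 on the 4 libraries (adjusted p up to 0.238).

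snoRNAs guide the modification and the cleavage of ribosomal RNA. Of 53 H/ACA box snoRNAs tested, 25 were called lower and none higher (50 lower with the pool block), and the median log2FC was -2.52 (-2.49 with the 2 members without a pull-down count set at a bound of 3 counts). Of 13 C/D box snoRNAs, 4 were called lower (12 with the pool block), with a median of -2.21. SNORD3A, the U3 snoRNA of pre-rRNA processing, had 8732 and 7635 CPM in the input and 1630 and 1446 CPM in the pull-down. It fell 5.32-fold (log2FC -2.41 ± 0.16, adjusted p = 0.000249). SNORA73A, which also acts in pre-rRNA processing, fell from 441 and 329 CPM to 56.5 and 58.9 CPM, with a log2FC of -2.74 ± 0.17. The 2 pull-down values of SNORA73A were nearly equal although the inputs were not. Small Cajal body RNAs, which guide the modification of snRNAs, were called lower in 8 of 9 cases, with a median of -1.76. Among them, SCARNA10 had 313 and 290 CPM in the input and 84.9 and 74.3 CPM in the pull-down, and SCARNA2 (420 bases) and SCARNA13 (275 bases) had a log2FC of -1.12 ± 0.18 and -1.12 ± 0.19. Both of the latter calls were lost without the first input or without either pull-down library, and that of SCARNA13 also without the second input (adjusted p up to 0.137 and 0.193).

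Among 8 other RNAs that RNA polymerase III transcribes or that form ribozymes, 5 were called lower (8 with the pool block), with a median log2FC of -1.47. RMRP, the RNA of RNase MRP, stood at 4713 and 3918 CPM in the input and at 1150 and 905 CPM in the pull-down, 4.20-fold lower (adjusted p = 0.000775). RPPH1, the RNA of RNase P, had a log2FC of -1.64 ± 0.18 and RN7SK, which restrains transcription elongation, of -1.30 ± 0.17. All of these left no overlap between input and pull-down. The signal recognition particle RNAs RN7SL1 and RN7SL2 are near-identical copies, and their reads are divided between them by estimation. RN7SL2 was called lower (log2FC -1.31 ± 0.16, adjusted p = 0.00333), and RN7SL1 had a log2FC of -0.28 ± 0.16 (adjusted p = 0.681). Their sum moved by -0.92 and -0.40 on the log2 scale in the 2 pools.

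By annotated class, snoRNAs made up 0.952% and 0.845% of all counts in the input and 0.208% and 0.182% in the pull-down. snRNAs made up 2.44% and 2.00% in the input and 1.11% and 0.864% in the pull-down, and nearly all of these counts were those of RN7SK. The spliceosomal snRNAs alone held 0.0986% and 0.0785% in the input and 0.0120% and 0.0179% in the pull-down. The RNAs of RNase P and RNase MRP went from 1.41% and 1.23% to 0.498% and 0.382%. Protein-coding genes held 70.4% and 72.6% in the input and 80.8% and 79.7% in the pull-down. Input and pull-down did not overlap for any of these classes. With 2 libraries a group, an exact permutation test of such a share cannot go below p = 0.33, so that none was tested.

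**Figure D2:**
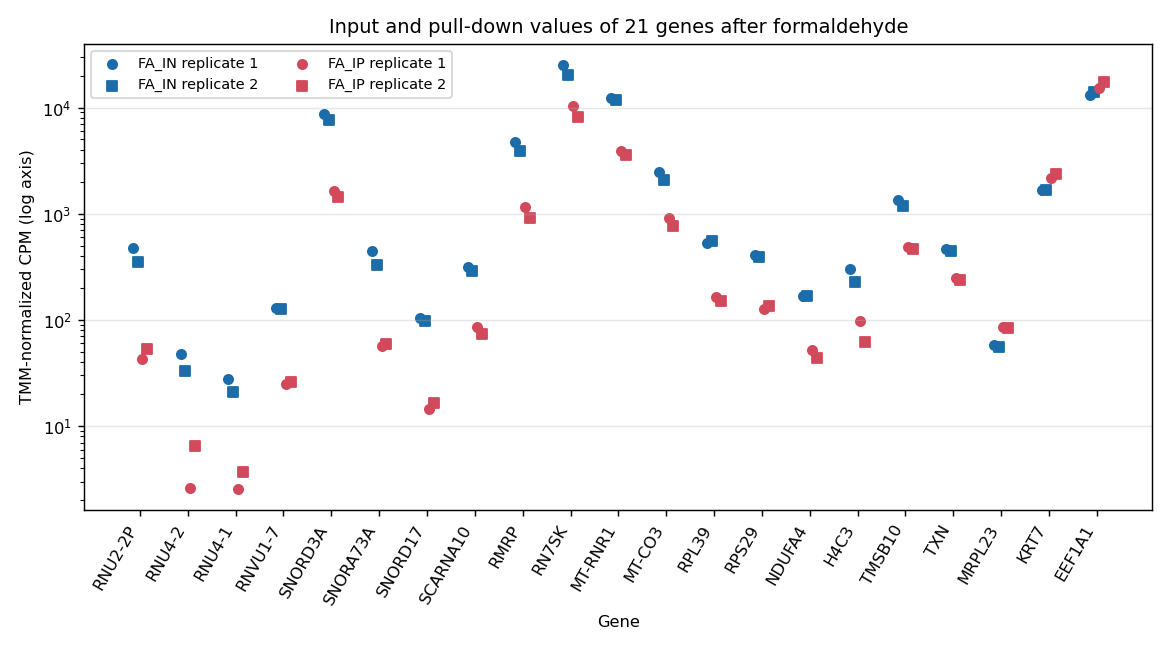
TMM-normalized CPM (log axis) of 21 genes in the 4 formaldehyde libraries, input in blue and pull-down in red, circles for replicate 1 and squares for replicate 2. From RNU2-2P to TXN both red points lie below both blue points, and for MRPL23, KRT7 and EEF1A1 both lie above.

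Mitochondrially encoded RNAs were lower as well. All 13 mRNAs of the mitochondrial genome had a negative log2FC (median -0.66); 4 were called lower, and 13 with the pool block. MT-CO3, a subunit of cytochrome c oxidase, had 2485 and 2082 CPM in the input and 916 and 771 CPM in the pull-down (log2FC -1.44 ± 0.14, adjusted p = 0.000914). MT-CO1, the catalytic subunit, had a log2FC of -0.99 ± 0.16 (adjusted p = 0.0149), a call lost without the first input or the second pull-down library (adjusted p up to 0.15). The small mitochondrial rRNA MT-RNR1 fell from 12317 and 11763 CPM to 3908 and 3581 CPM, 3.22-fold. The large mitochondrial rRNA MT-RNR2 took the largest number of counts of the pair and had a log2FC of -0.49 ± 0.14 (adjusted p = 0.207, and 2.14e-06 with the pool block).

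The mRNAs of the cytosolic ribosome divided. Of 50 large subunit proteins, 24 were called lower and none higher, with a median log2FC of -0.47. Of 33 small subunit proteins, 16 were called lower and none higher, with a median of -0.44. With the pool block the large subunit had 31 lower and 5 higher and the small subunit 21 lower and 2 higher. RPL39 stood at 528 and 550 CPM in the input and at 165 and 149 CPM in the pull-down, and RPS29 at 410 and 392 CPM against 128 and 134 CPM. These are decreases of 3.43-fold and 3.06-fold (adjusted p = 0.00018 for each). RPL4 had 2514 and 2586 CPM in the input and 2827 and 2996 CPM in the pull-down, a log2FC of 0.19 ± 0.09 that was not called (adjusted p = 0.611, and 0.0431 with the pool block). RPS6 behaved like RPL4, with a log2FC of 0.29 ± 0.10 (adjusted p = 0.335, and 0.00322 with the pool block). The main isoforms of the 40 lower ribosomal protein genes had a median length of 600 bases and those of the others of 794 bases. Below 600 bases 20 of 27 were called lower, and at 600 bases or more 20 of 56.

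Subunits of the respiratory chain and of ATP synthase showed the same division. Of 37 complex I subunits 11 were called lower (median -0.18), and of 38 subunits of complexes III to V 16 (median -0.54), with none higher. With the pool block 26 subunits of complexes III to V were lower and 8 higher. NDUFA4, a small subunit of the chain, had 168 and 169 CPM in the input and 52.2 and 43.5 CPM in the pull-down, and fell 3.54-fold (adjusted p = 0.0002). ATP5MK, a small subunit of ATP synthase, had a log2FC of -1.56 ± 0.10. UQCRC1, a core subunit of complex III, had 294 and 287 CPM in the input and 362 and 373 CPM in the pull-down (log2FC 0.34 ± 0.09, adjusted p = 0.184, and 0.00076 with the pool block). Below 600 bases 12 of 19 subunits were called lower, and at 600 bases or more 15 of 56. NDUFA4 is an exception to that division, at 2130 bases.

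Replication-dependent histone mRNAs, which end in a stem-loop in place of a poly(A) tail, were called lower in 14 of 61 cases and in 53 with the pool block, with a median log2FC of -1.06. H4C3 had 303 and 227 CPM in the input and 98.3 and 62.4 CPM in the pull-down (log2FC -1.72 ± 0.21, adjusted p = 0.00347). The histone transcripts differed between the inputs themselves, at 0.433% and 0.277% of counts, and both pull-downs were lower than their own input, at 0.243% and 0.156%. The second input thus stood close to the first pull-down, which the pool block takes into account. Of 6 metallothioneins, which bind metal ions, MT2A was called lower (1131 and 1127 CPM against 530 and 544 CPM, log2FC -1.07 ± 0.14, adjusted p = 0.055 without the first pull-down library) and 4 were with the pool block. Of 13 S100 proteins 3 were called lower, among them S100A6 (log2FC -1.03 ± 0.10). TMSB10, an actin-binding peptide, fell from 1352 and 1172 CPM to 483 and 461 CPM, whereas the actins ACTB and ACTG1 had a log2FC of 0.07 ± 0.09 and 0.28 ± 0.13 (adjusted p = 0.948 and 0.558).

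**Figure D3:**
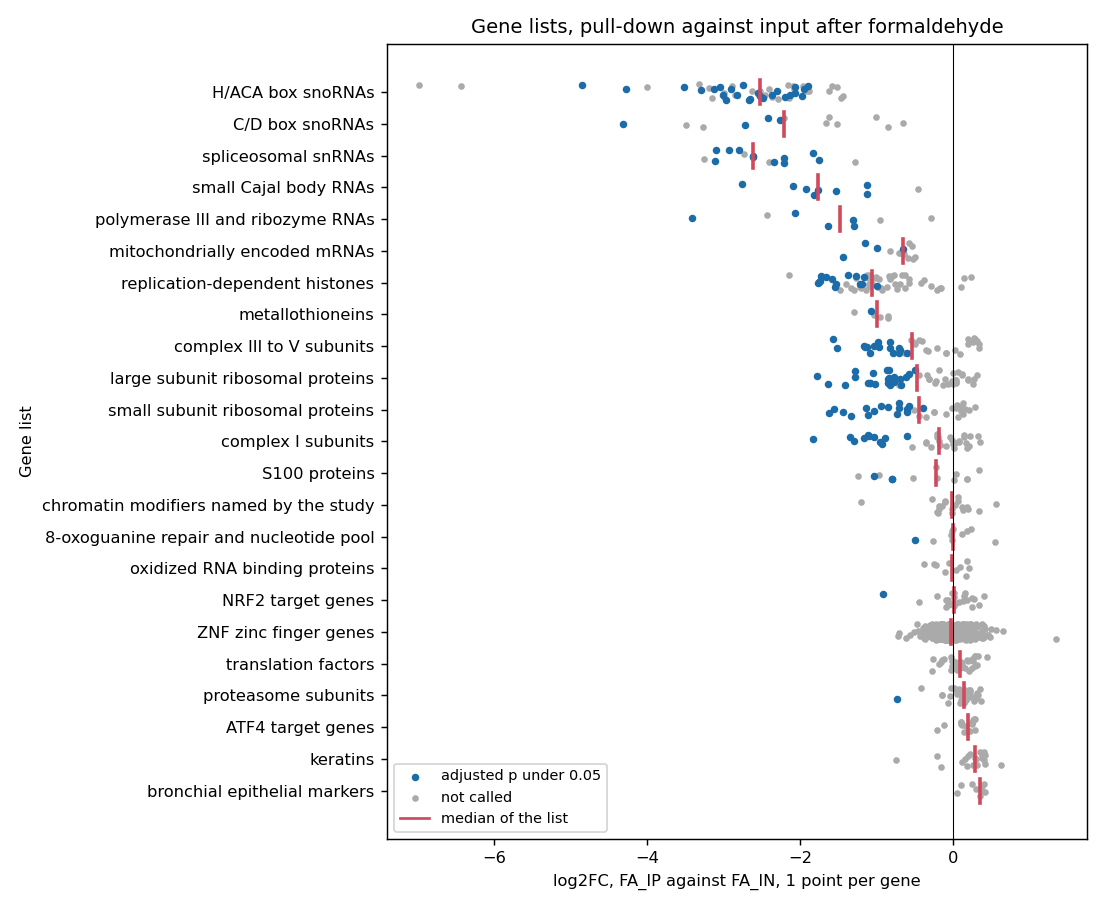
log2FC of FA_IP over FA_IN for the members of 23 gene lists, 1 point per gene, with genes past an adjusted p of 0.05 in blue and the median of each list as a red bar. The 5 lists of short non-coding RNAs have medians between -2.61 and -1.47, and the keratins and bronchial markers have the highest, at 0.29 and 0.36, with no member called.

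In the opposite direction, 5 genes were called higher in FA_IP. The only such gene at an appreciable level was MRPL23, a protein of the large mitochondrial ribosomal subunit, with 57.7 and 55.9 CPM in the input and 85.7 and 84.1 CPM in the pull-down. Its log2FC was 0.58 ± 0.11 (adjusted p = 0.0425, and 5.01e-06 with the pool block), and the call was lost when any library was left out and with upper quartile scaling (adjusted p up to 0.254). The other 4 genes had low counts and are named here because the count is small. ENSG00000257524 had 68 counts in the input and 169 in the pull-down, a ratio of 3.45 with a 95% exact interval of 2.59 to 4.64, which covers counting error only. BIVM-ERCC5, a readthrough gene, held 2 rounded counts in the input and 117 in the pull-down, ENSG00000277067, a lncRNA, 0 and 51, and ENSG00000285238 0 and 26. These 3 genes passed the filter only through the pull-down libraries, so that they had to differ, and their calls support nothing. BIVM-ERCC5, ENSG00000257524 and ENSG00000285238 overlap others on the same strand whose counts hardly moved: BIVM and ERCC5 had a log2FC of -0.17 and -0.15, AK1 and ST6GALNAC6 of 0.15 and 0.14, and NOP2 and CHD4 of 0.12 and -0.11. ENSG00000277067 has a counterpart of the same length and base composition, ENSG00000275496, with 72 and 163 counts in the input and 12 and 44 in the pull-down (log2FC -1.60 ± 0.44, adjusted p = 0.188). Summed, they stood at 2.97 and 4.71 CPM in the input and 1.28 and 3.43 CPM in the pull-down, so that the groups overlapped. Counts of overlapping or near-identical genes depend on how the estimation divides their reads, and these 4 calls are uncertain, each lost in 1 to 4 of the alternatives tried.

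Most genes that rose did so only in the fit with the RNA pool. In that fit 6.5% of all tested genes were higher and 4.9% lower. Of the 8880 genes with a mean CPM of at least 10, 1012 were higher and 621 lower, and the list counts below are to be read against these. Of 20 keratins, the intermediate filaments of epithelium, 9 were higher and 1 lower with the pool block, with a median log2FC of 0.29. KRT7 stood at 1680 and 1684 CPM in the input and at 2152 and 2350 CPM in the pull-down (log2FC 0.42 ± 0.13, adjusted p = 0.276, and 5e-05 with the pool block). KRT17 had 1156 and 1502 CPM in the input and 1480 and 2042 CPM in the pull-down, so that the groups overlapped although each pull-down exceeded its own input. Of the 9 bronchial epithelial markers 7 were higher with the pool block, with a median of 0.36. Of 35 translation factors 10 were higher and 2 lower, including the elongation factors EEF1A1 (log2FC 0.24 ± 0.12, adjusted p = 0.592, and 0.00952 with the block) and EEF1D (0.45 ± 0.09, adjusted p = 0.0568, and 2.22e-05 with the block). Of 37 proteasome subunits 11 were higher and 2 lower, and PSMB3 was called lower in both fits (log2FC -0.73 ± 0.11), a call lost without the first input or either pull-down library (adjusted p up to 0.111). Of 16 targets of the stress factor ATF4, 6 were higher and none lower, with a median of 0.20.

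The study named chromatin modifiers and genes of the p53 response, and these lists were chosen on the same libraries. None of the 20 chromatin modifiers and none of the 9 p53 and DNA damage genes was called in either direction, with medians of -0.01 and -0.08. By edgeR's unadjusted p under 0.05 there were 4 of 20 and 1 of 9, against 9.56% of all tested genes. With the pool block 2 chromatin modifiers were higher, 2 lower, and 1 gene of the second list, KAT5, was higher. KAT5, an acetyltransferase of both lists, had 14.1 and 12.9 CPM in the input and 19.3 and 20.5 CPM in the pull-down (log2FC 0.56 ± 0.13, adjusted p = 0.097, and 0.000173 with the block). The histone gene H2AC6 had a log2FC of -1.20 ± 0.27 (adjusted p = 0.0891, and 2.2e-11 with the block). SMARCA4, the ATPase of a chromatin remodelling complex, had 105.7 and 87.5 CPM against 100.6 and 97.0 CPM, and BRCA1 84.4 and 106 CPM against 75.5 and 89.2 CPM, and for each the groups overlapped. These are sums over isoforms, so that a change of 1 isoform within a gene was not measured here. The study chose single transcripts by how far their enrichment after formaldehyde exceeded that in clean air. That is another comparison, so that the values here do not test its lists.

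Genes that remove oxidized guanine or its nucleotides moved little. Of 10 such genes NUDT5, a hydrolase of the nucleotide pool, was called lower, from 108 and 113 CPM to 77.0 and 80.0 CPM (log2FC -0.50 ± 0.09, adjusted p = 0.0336). The call was lost with library size, with upper quartile scaling and with any library left out (adjusted p up to 0.277). Among 10 proteins known to bind oxidized RNA none was called (1 higher and 3 lower with the pool block), including YBX1 (log2FC 0.18 ± 0.08, adjusted p = 0.56) and PCBP1 (-0.38 ± 0.13, adjusted p = 0.353). Of 23 targets of NRF2, the factor of the antioxidant response, TXN was called lower, from 470 and 449 CPM to 250 and 238 CPM (log2FC -0.91 ± 0.08, adjusted p = 0.000616). Of 13 genes of formaldehyde clearance ESD, which hydrolyses the glutathione adduct of formate, was called lower (105 and 116 CPM against 58.2 and 63.2 CPM, log2FC -0.86 ± 0.12, adjusted p = 0.0802 without the first pull-down library). No gene was called among 24 p53 targets, 20 immediate early genes, 14 cytosolic chaperones, 13 airway cytokines and chemokines, 29 collagen chains, 10 laminins or 459 ZNF zinc finger genes. Over these 7 lists together, 10 of 569 genes (1.76%) had an unadjusted p under 0.05 in edgeR, against 9.56% of all tested genes. With the pool block 15 were higher and 13 lower (2.64% and 2.28%, against 6.5% and 4.9%). These 7 lists were put together because they held no call, and 459 of the 569 are ZNF genes, 4 of them under 0.05. The low shares are therefore no result about the lists. Other lists without a call differed, with 10 of 35 translation factors, 5 of 20 keratins and 3 of 53 histone-modifying enzymes under 0.05. Of 17 nuclear lncRNAs and snoRNA host genes, ZFAS1 alone was called, lower at a log2FC of -0.78 ± 0.10 (adjusted p = 0.065 without the first pull-down library), and MALAT1 had a log2FC of -0.18 ± 0.13 (adjusted p = 0.815).

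The called lower genes shared a feature that the comparison did not use, the length of their RNA. Length was taken from the isoform with the most expected counts. The 267 genes had a median length of 580 bases, against 2666 bases over all tested genes, and 228 of them were at most 1000 bases long. Among genes with a mean CPM of at least 10, the share called lower was 76.2% (16 of 21) below 200 bases, 58.5% (31 of 53) from 200 to 400 bases and 48.5% (63 of 130) from 400 to 600 bases. It was 27.1% from 600 to 800 bases, 9.3% from 800 to 1000 bases and 1.6% from 1000 to 2000 bases, and 2 of 3180 genes of 4000 bases or more were called. The median log2FC rose over the same bins from -2.51 below 200 bases to 0.13 from 1000 to 2000 bases, and was -0.04 at 4000 bases or more. Protein-coding genes and others had medians of -0.77 (110 genes) and -0.79 (20 genes) from 400 to 600 bases, but they differed in the bins on either side. The medians were -1.13 (30 genes) and -1.64 (23 genes) from 200 to 400 bases, and -0.24 (204 genes, 29.4% called lower) and 0.08 (21 genes, 4.8% called lower) from 600 to 800 bases. With the effective lengths of the isoforms entered as an offset, 302 genes were lower and 7 higher. The offset was scaled to each gene's own mean, so that it held only differences in effective length between libraries. It cannot tell how the log2FC depends on length across genes. The cause of the relation between length and log2FC was not tested.

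Base content was compared in genes of at least 1000 bases and a mean CPM of at least 10, of which 8053 of 8183 had a sequence. Across these genes the log2FC rose with the share of guanine, with a Spearman rho of 0.69. The relation was weaker in the first RNA pool (rho 0.38) than in the second (rho 0.79). Genes with under 20% guanine had a median log2FC of -0.09 and those with 34% or more of 0.28. Cytosine rose with the log2FC as well (rho 0.59), whereas adenine and uracil fell with it (rho -0.63 and -0.58). Guanine and cytosine were themselves correlated across genes at 0.84. The partial rank correlation was 0.46 for guanine given cytosine and 0.01 for cytosine given guanine. For guanine it was 0.29 in the first pool, 0.51 in the second and 0.56 in clean air. For cytosine it was -0.10 in the first pool, 0.12 in the second and 0.16 in clean air, so that its sign differed between the pools. Genes higher with the pool block had a median guanine share of 29.99% and those lower of 21.6%, over 921 and 271 genes of this length and level, against 24.21% over all. These are descriptions across genes, which share the same libraries and are not independent replicates. The guanine trend in these genes is small beside that of length over all length bins. Among genes of at least 1000 bases alone, length showed the narrower range. Their median log2FC was 0.13 from 1000 to 2000 bases, 0.08 from 2000 to 4000 bases and -0.04 at 4000 bases or more. Within these length bins the rho of guanine with the log2FC was 0.73, 0.75 and 0.54.

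**Figure D4:**
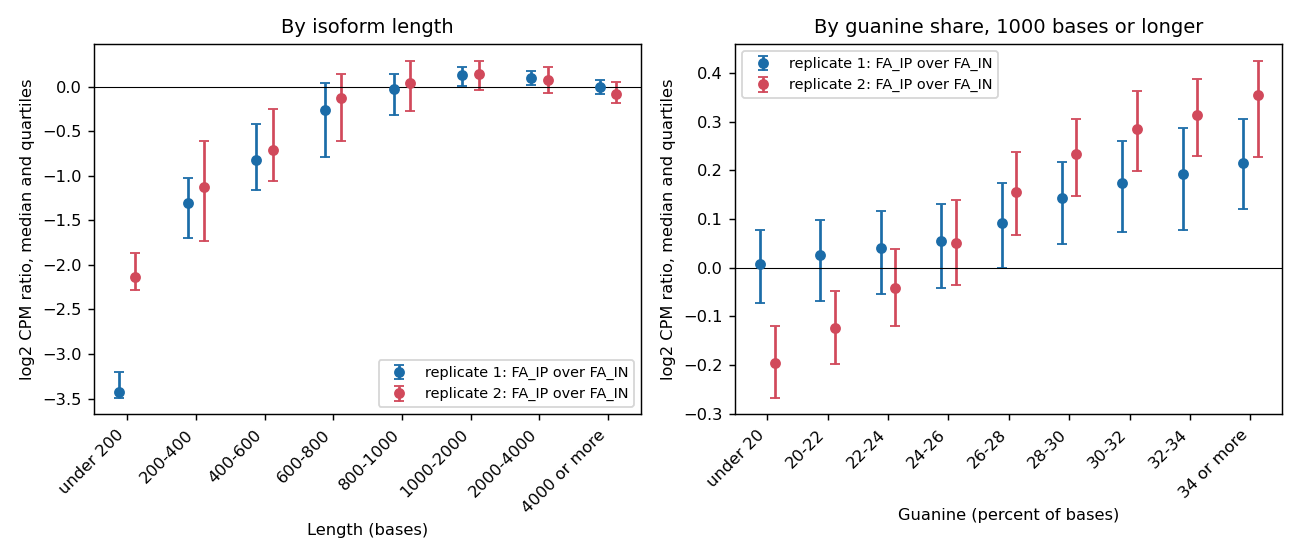
log2 CPM ratio of FA_IP over FA_IN for genes with a mean CPM of at least 10, with the first RNA pool in blue and the second in red, as medians with quartiles per bin. The left panel shows bins of isoform length in bases, where the median ratios rise from -3.42 and -2.14 below 200 bases to near 0 from 800 bases, and the right panel bins of guanine share, where the rise is steeper in the second pool.

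The ratios of the RNA pools differed in several respects. Over 8880 genes with a mean CPM of at least 10, the log2 ratios of the first and the second pool had a Pearson correlation of 0.79 across genes and the same sign in 6112 (68.8%). Below 200 bases the first pool showed the stronger depletion, with a median ratio of -3.42 against -2.14 in the second. Among the short RNAs, RNU4-2 had ratios of -4.18 and -2.35, and RNVU1-7 had ratios nearer to each other. RNVU1-18 was the least even, at 7.23 and 0.654 CPM in the pull-down, and was not called (log2FC -3.25 ± 0.68, adjusted p = 0.0646, and 2.69e-10 with the block).

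**Figure D5:**
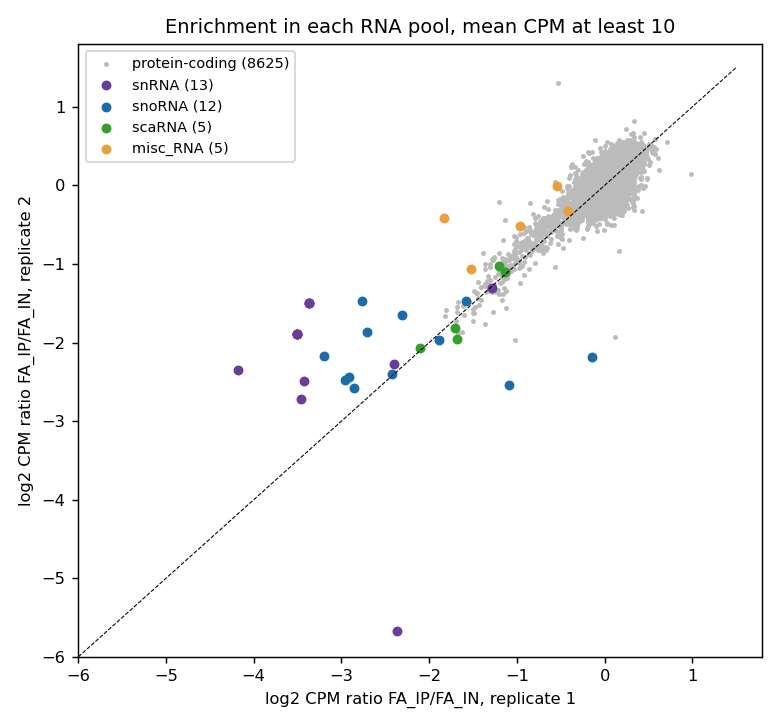
log2 CPM ratio of FA_IP over FA_IN in the first RNA pool (horizontal) and the second (vertical) for genes with a mean CPM of at least 10 of 5 RNA classes, 1 point per gene, with the line of equal ratios dashed. Protein-coding genes lie along the line and most snRNAs lie above it, with a stronger depletion in the first pool; other classes are not drawn.

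Clean air was compared in the same fit, where 331 genes were lower and 9 higher in CA_IP than in CA_IN (1.96% and 0.0532%), or 1357 and 1781 with the pool block (8.02% and 10.5%), and 264 of the 267 genes lower in formaldehyde were called lower in clean air. The 3 others, SNORD118, SMIM26 and UXT, had a log2FC of -2.81, -0.56 and -0.47 in clean air (adjusted p = 0.0723, 0.0541 and 0.139). The median log2FC of the 267 genes was -1.11 after formaldehyde and -1.20 after clean air, against 0.02 and -0.01 over all tested genes. The 267 genes share the same libraries, so that these medians are no test of the treatment. The guanine relation also held in clean air, with a rho of 0.83. The difference between the treatments was tested as an interaction, and no gene passed (0 of 16920, smallest adjusted p 0.185, 139 at an unadjusted p under 0.05). DESeq2 on the 8 libraries called 3 genes in the same test, and the pool block 25 (0.148%), with 18 ratios higher after formaldehyde (0.106%) and 7 lower (0.0414%). Of these 25 genes, 8 had a mean CPM of at least 10 and 9 had no count in at least 1 library.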

How the data were processed

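RNA-seq was analysed in 8 libraries of BEAS-2B cells, 2 in each of 4 groups. Per the labels and the study's methods, the authors trimmed reads with cutadapt, aligned them with STAR 2.6.0a and estimated expected counts and TPM per transcript for each library with RSEM 1.2.25. The deposited expected counts are not normalized. The deposited TPM values are relative to effective length and served for reference only. The 3 deposited DESeq2 tables hold fold changes and p-values of the authors' comparisons, 2 of them identical, and were not used.

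Expected counts were summed by gene and rounded. Genes that reached 10 counts in 2 or more formaldehyde libraries were fitted over all 8 libraries with edgeR 4.0.16 (quasi-likelihood, TMM, prior count 0.125, R 4.3.3), with Benjamini-Hochberg adjusted p under 0.05. The value after ± is an approximate standard error, the absolute log2FC divided by the square root of the test's F statistic. Total expected counts were 16.9 to 45.1 M per library, and the number of libraries limits the precision. The step was tested on simulated data drawn without an RNA pool effect, so that the simulation cannot decide between the fits with and without the pool block. Input and pull-down were paired by RNA pool, from the study's methods and the replicate numbers of the deposited tables; deviations from the group means correlated at 0.252 in formaldehyde and 0.337 in clean air over all genes, and at 0.667 and 0.806 at a mean CPM of at least 10. Alternatives changed scaling, filter, tool, block, length offset, prior count and libraries.

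Genes named are those called with the largest change, at a mean CPM of at least 10 and with ratios of the same sign in both pools, and in each list the most abundant members and the most changed; others are said to be chosen after their values were seen or serve as examples of a list. Members and lists were chosen with earlier results of these data known. Sequences and positions are from GENCODE 44 on GRCh38. mRNA sequences were not printed, and some other items are not reported here.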

Additional observations from a re-analysis of the deposited data

Results flagged for a closer look

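Genes are given here whose pull-down to input ratio differed between formaldehyde and clean air when that difference was tested in edgeR with a term for the RNA pool, adjusted over 16920 genes. None of them passed in the test without the block, where the smallest adjusted p was 0.185. The variant U1 gene RNVU1-7 had a ratio higher by 1.17 on the log2 scale after formaldehyde (adjusted p = 2.22e-06), with 117 and 158 CPM in the clean air input and 10.6 and 13.5 CPM in the clean air pull-down. RNU1-1, RNU1-3, RNU1-28P and ENSG00000275405, which carry identical counts and are 1 measurement, had a difference of 2.88 (adjusted p = 3.78e-05). RNU1-2 has the same sequence as RNU1-1 (0 edits), but its difference was -0.35, in the opposite direction. In the pull-downs RNU1-2 had 14.9 and 29.2 CPM in clean air and 8.23 and 17.5 CPM after formaldehyde. RNVU1-7 differs from RNU1-2 by 1 edit. Counts of these U1 genes depend on how the estimation divides shared reads, so that the differences cannot be assigned to single genes or to the treatment. SNORD3A, the U3 snoRNA, had a difference of 0.49 (adjusted p = 0.00734). SNORD3C, a related gene of the same length (217 bases), did not pass, with a difference of 1.06 (adjusted p = 0.169 in the same fit). Its formaldehyde pull-downs were uneven, at 23.9 and 8.75 CPM. Whether reads are divided between these genes was not tested. The readthrough gene BIVM-ERCC5 had a difference of 6.73, with 2 rounded counts in the formaldehyde input against 4.71 and 3.63 CPM in the clean air input. Its pull-down values were 3.56 and 2.17 CPM after formaldehyde and 2.77 and 2.86 CPM in clean air. It passed the filter only through the pull-down libraries and overlaps BIVM and ERCC5, so that this difference supports nothing. RGPD5, a member of a family of near-identical copies, had a difference of 0.88, and the lncRNA ENSG00000280614 one of 0.53.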

How the results depend on the processing

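The number of genes higher in FA_IP, 5 with TMM and no block, was 372 with library size, 62 with no filter, 2 at a mean count of at least 50, 11 with edgeR on the 4 libraries, 16 with DESeq2 on 8 and 16 on 4 libraries, and 1 to 3 with a library left out. The number lower, 267, was 514 with no filter and 135 to 200 with a library left out (135 without the first input, 146 and 161 without the first and the second pull-down). With the replicate number as a block, 441 were higher and 587 lower. With the RNA pool as a block, 1099 were higher and 829 lower, and the pairing lost no call in either direction; with library size as well, chosen after seeing the data, 4072 were higher and 567 lower. The difference between treatments gave 0 genes, against 50 with no filter, 3 with DESeq2, 3 with the replicate number, 25 with the RNA pool, 10 with the pool and library size, and 0 to 5 with a library left out. Of the named genes 51 were called, against 85 with the replicate number, 102 with the pool, 123 with the pool and library size, and 31 to 41 with a library left out. The median was below 0 in 23 gene lists, and in 15 with library size, with or without the pool block. Without mitochondrially encoded genes in the total, mean shares in FA_IN were 1.05% for snoRNA, 2.59% for snRNA, 1.54% for ribozymes, 9.98% for misc_RNA and 82.3% for protein-coding genes, and in FA_IP 0.219% for snoRNA, 6.76% for misc_RNA and 89.2% for protein-coding genes. The cause of these changes was not tested. Groups of 2 libraries and the absence of a control antibody limit what can be read from any ratio.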
